A study of Mus musculus with 37 samples.

Results

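The comparison described here set 2-cell embryos from Cabin1-deleted oocytes against 2-cell embryos from heterozygous control oocytes. It took in 8 of the 37 samples of the series, 4 CabZ KO libraries (genotype Cabin1_KO) and 4 CabZ Het libraries (genotype Cabin1_Het), all RNA-seq of C57BL/6 mouse embryos. In both groups the mothers carried a Zp3-Cre transgene, in which the promoter of a zona pellucida gene drives Cre recombinase in growing oocytes. KO mothers had a floxed Cabin1 on both chromosomes and Het mothers had a floxed and an intact copy, so the controls carry Cre and a recombined allele and are not wild type. Whether these embryos were fertilised or activated without sperm was not given in the sources used here, nor were ages. The labels speak of individual cells and the series' design text of pools, and no source ties a library to a mother, so p-values here measure the spread between libraries, which may be technical. Levels are FPKM, fragments scaled to gene span and library total, restored from the deposited values for 24305 genes, and the 7798 genes that averaged 1 FPKM or more across the 8 libraries were tested.

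Cabin1 is a subunit of the Hira complex, a chaperone that places the histone variant H3.3 into chromatin outside DNA replication. The oocyte stores proteins and transcripts that carry the embryo through its first cleavage. In the mouse the embryo's own genome is switched on mainly at the 2-cell stage, while maternal transcripts are degraded. Early zygotic transcription includes short-lived 2-cell genes such as the Zscan4 and Obox families, and then the genes for making ribosomes, proteins and energy. A transcript higher in one group can come from more synthesis or less decay, among other sources, and these steady-state values cannot separate them. They were read from captured and amplified mRNA, and whether capture differed between the groups was not tested.

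Cabin1 itself (chr10:75646112-75764342, mm10) was checked first in every library. Its level was 0.332, 0.229, 0.274 and 0.455 FPKM in CabZ Het 1 to 4 and 0.181, 0.15, 0.142 and 0.064 FPKM in CabZ KO 1 to 4, and no CabZ KO library reached the lowest CabZ Het library. The means were 0.322 ± 0.0978 FPKM (SD, n = 4) in CabZ Het and 0.134 ± 0.0497 FPKM (n = 4) in CabZ KO, a difference of -0.188 FPKM (exact permutation test, two-sided, p = 0.0286, which is the minimum for 4 libraries against 4). About 215–443 reads per CabZ Het library and 44–125 per CabZ KO library lay behind these values. Reads from the part of the gene that Cre leaves in place still count towards it, and both Het and KO levels lie under the 1 FPKM filter.

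The other subunits and partners of the complex did not move together. Hira, the subunit that gives the complex its name, also lay under the filter and was not tested, but its values separated the groups: 0.193, 0.268, 0.216 and 0.255 FPKM in CabZ Het 1 to 4 and 0.0569, 0.0547, 0.0474 and 0.0147 FPKM in CabZ KO 1 to 4 (8–32 estimated reads per KO library against 143–199). Ubn1, the third subunit, overlapped between the groups (0.612–1.02 FPKM in CabZ Het against 0.451–0.789 FPKM in CabZ KO). Nasp, a chaperone that holds soluble H3 and H4, fell (17.5, 19.5, 18.6 and 12.3 FPKM in CabZ Het 1 to 4 and 7.91, 5.703, 6.95 and 3.22 FPKM in CabZ KO 1 to 4; log2 difference -1.41, SE 0.26, adjusted p = 0.0019 by limma). H3f3a, which encodes H3.3, was 77.02, 72.4, 75.1 and 68.8 FPKM in CabZ Het 1 to 4 and 33.9, 31.8, 40.2 and 36.1 FPKM in CabZ KO 1 to 4, a log2 difference of -1.03 (adjusted p = 0.00069) that drops to -0.98, short of the 2-fold threshold, without CabZ KO 2, and to -0.79 with libraries scaled to equal medians. H3f3b encodes the same protein and was at 298–402 FPKM in CabZ Het against 345–511 FPKM in CabZ KO, with overlap. Asf1a, which hands histones to Hira, was 10.7–13.6 FPKM in CabZ Het against 14.3–25.8 FPKM in CabZ KO and missed the threshold (adjusted p = 0.055).

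**Figure D1:**
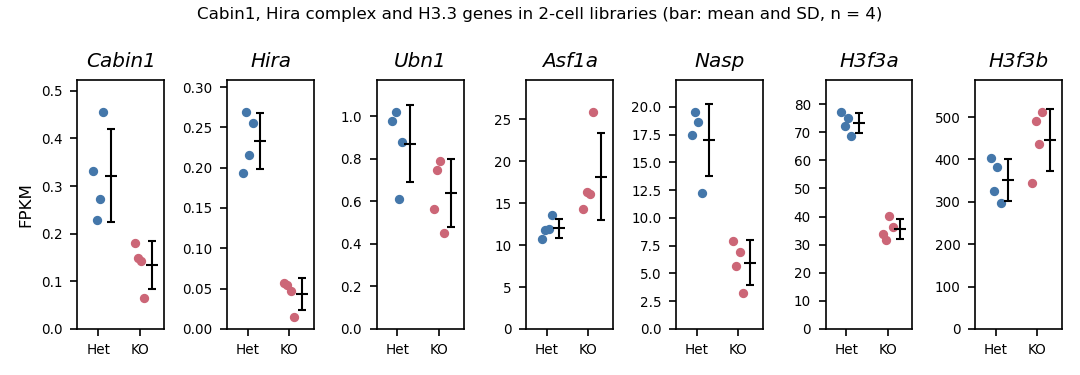
FPKM of Cabin1, Hira, Ubn1, Asf1a, Nasp, H3f3a and H3f3b in each of the 4 CabZ Het (blue) and 4 CabZ KO (red) 2-cell libraries, each gene on its own axis from 0. Black bars give the mean and SD (n = 4). Cabin1, Hira, Nasp and H3f3a are lower in every CabZ KO library than in every CabZ Het library, and Ubn1 and H3f3b overlap.

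Of the 7798 genes tested, 1320 (16.9%) were higher and 1594 (20.4%) were lower in CabZ KO embryos at an adjusted p under 0.05 and a log2 difference beyond 1. In 3977 genes (51%) the 4 KO values did not overlap the 4 Het values, so separation of a gene's groups is common in these libraries. These shares are the background for every gene group that follows. With libraries scaled to equal medians, the split was 1757 higher and 1126 lower (60.9% of the calls higher, against 45.3%), while the middle gene went from a log2 difference of -0.11 to one of 0.13. On the values as deposited, it was 1617 higher and 557 lower, and the genes lay 0.53 higher by their median. Directions are given on the FPKM scale, and for the groups whose median changed sign under another scaling this is said beside their counts. On the values as deposited, Nasp (-0.58), H2afj (-0.98), Tbpl2 (0.69), Polr3k (-0.90), Psma6 (-0.74), Ctsc (-0.95), Atp5g1 (-0.94), Aurka (-0.90) and Gpx4 (-0.86), all called on FPKM and described below, kept their direction but were not called. Mapped reads on genes were 7939307–8233456 in the CabZ Het and 5814017–6327487 in the CabZ KO libraries, while reads were seen on 18567–20281 and 21040–21850 genes. Log2 levels correlated at 0.935–0.963 among CabZ Het libraries, 0.905–0.946 among CabZ KO libraries and 0.684–0.855 between them. On the first principal component (68.4% of the variance), CabZ Het 1 and 4 lay nearest to the CabZ KO libraries and CabZ KO 4 farthest from CabZ Het.

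**Figure D2:**
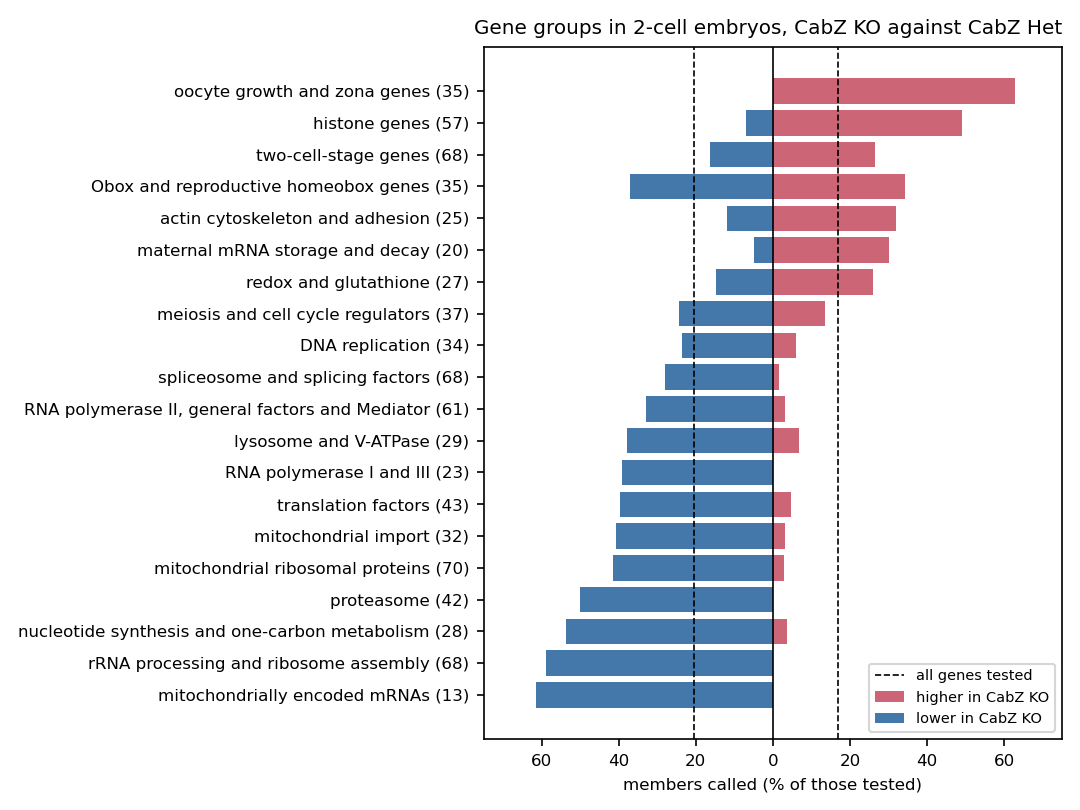
Share of the tested members of 20 gene groups that were higher (red, to the right) or lower (blue, to the left) in CabZ KO 2-cell embryos, in percent, with the number of members tested in brackets. Dashed lines mark the shares over all 7798 genes, 16.9% higher and 20.4% lower. Oocyte and histone genes reach farthest right, and rRNA processing genes and mitochondrially encoded mRNAs farthest left.

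Transcripts made by the growing oocyte were higher in CabZ KO 2-cell embryos. Of 42 oocyte growth and zona genes, 35 were tested, 22 rose and 0 fell, 34 lay higher, and their median log2 difference was 1.38. Mos, the kinase that holds the egg in metaphase arrest, was 1.21, 4.69, 0.432 and 0.251 FPKM in CabZ Het 1 to 4 and 28.7, 6.83, 14.9 and 18.9 FPKM in CabZ KO 1 to 4. Its mean was 1.65 ± 2.07 FPKM (SD, n = 4) in the controls and 17.3 ± 9.08 FPKM (n = 4) in KO, a log2 difference of 2.92 (adjusted p = 0.0016). Gdf9, a growth factor that oocytes send to the follicle, stood at 10.6, 10.2, 9.83 and 14.1 FPKM in CabZ Het 1 to 4 and 58.6, 24.6, 32.2 and 77.7 FPKM in CabZ KO 1 to 4 (log2 difference 1.89, adjusted p = 0.0016). Every CabZ KO library lay above every CabZ Het library for both genes. Bmp15, the partner of Gdf9, rose (28.3–46.9 FPKM in CabZ Het against 76.6–154 FPKM in CabZ KO; log2 difference 1.46). H1foo, the oocyte linker histone, rose (12.5, 6.65, 6.76 and 17.5 FPKM in CabZ Het 1 to 4 and 46.9, 29.9, 29.5 and 91.5 FPKM in CabZ KO 1 to 4; log2 difference 2.03, adjusted p = 0.0029). Of the genes for the egg coat, Zp2 rose (1.72–3.34 FPKM in CabZ Het against 6.59–15.4 FPKM in CabZ KO; log2 difference 1.58). Zp1 was 1.86–2.42 FPKM in CabZ Het against 3.61–6.45 FPKM in CabZ KO, without overlap but short of the 2-fold threshold at 0.89. Zp3, the gene whose promoter drives Cre here, was 8.26, 15.8, 15.3 and 8.21 FPKM in CabZ Het 1 to 4 and 19.4, 6.18, 10.1 and 9.78 FPKM in CabZ KO 1 to 4 and overlapped (-0.104, adjusted p = 0.82).

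Proteins of the subcortical maternal complex line the egg cortex and are needed for cleavage. All 6 tested genes of that complex lay higher, but 1 passed both thresholds. It was Ooep, at 36.4, 23.3, 21.2 and 54.7 FPKM in CabZ Het 1 to 4 and 173, 127, 168 and 446 FPKM in CabZ KO 1 to 4 (log2 difference 2.64, SE 0.42, adjusted p = 0.00092). The count was 3 without CabZ Het 4, and 2 without CabZ Het 1, Het 2, KO 1, KO 2 or KO 3. Nlrp5, another subunit, was 0.713–1.85 FPKM in CabZ Het against 2.303–3.52 FPKM in CabZ KO, a log2 difference of 0.76. Dppa3, a maternal factor that shields DNA methylation in the zygote, was abundant in both groups (1544, 1538, 1915 and 1540.1 FPKM in CabZ Het 1 to 4 and 772, 899.8, 1178 and 2075 FPKM in CabZ KO 1 to 4) and overlapped.

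Regulators that store or destroy maternal mRNA were mixed, with 6 of 20 tested members higher and 1 lower. Dazl, which promotes translation of stored mRNAs, rose (8.25, 9.99, 5.26 and 17.5 FPKM in CabZ Het 1 to 4 and 41.1, 32.1, 35.4 and 41.6 FPKM in CabZ KO 1 to 4; log2 difference 1.88, adjusted p = 0.00094). Zar1, which helps to store oocyte mRNA, rose (1.24–3.71 FPKM in CabZ Het against 5.86–14.4 FPKM in CabZ KO; log2 difference 1.695). The deadenylase Cnot7 rose with its adaptor Btg4, whose partnership shortens poly(A) tails of maternal mRNA: Cnot7 was 35.7, 29.3, 26.4 and 35.7 FPKM in CabZ Het 1 to 4 and 76.1, 78.6, 76.03 and 84.5 FPKM in CabZ KO 1 to 4, and Btg4 was 33.4–79.8 FPKM in CabZ Het against 107–159 FPKM in CabZ KO. Their log2 differences were 1.29 and 1.27. Cnot8, a close relative of Cnot7, went the other way (11.6, 23.5, 21.05 and 16.2 FPKM in CabZ Het 1 to 4 and 8.22, 5.86, 7.59 and 6.996 FPKM in CabZ KO 1 to 4; log2 difference -1.19, adjusted p = 0.0024). Its fall shrank to -0.95 with equal medians, short of the 2-fold threshold.

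Histone genes, most of them of the kind transcribed during DNA replication, were higher as well. Of 72 histone genes, 57 were tested, 28 rose and 4 fell, with a median log2 difference of 1.24. Hist1h4a stood at 3.92, 1.53, 1.95 and 5.82 FPKM in CabZ Het 1 to 4 and 19.9, 40.1, 32.8 and 57.002 FPKM in CabZ KO 1 to 4, a log2 difference of 3.18 (SE 0.39, adjusted p = 0.00031). Hist1h2bk was 4.03–7.29 FPKM in CabZ Het against 38.4–88.7 FPKM in CabZ KO, and the linker histone Hist1h1a was 17.99, 12.2, 12.01 and 9.34 FPKM in CabZ Het 1 to 4 and 116, 81.4, 67.2 and 104 FPKM in CabZ KO 1 to 4. Hist1h2ba, a germline H2B variant, was 1.72–3.39 FPKM in CabZ Het against 17.2–40.7 FPKM in CabZ KO. Log2 differences were 2.95, 2.75 and 2.81, and in each gene the groups were apart. Few reads lay behind the short core histone genes, 7–26 in CabZ Het and 63–179 in CabZ KO for Hist1h4a. Copies of these genes are near-identical, so reads can be split among them and single genes are uncertain. Levels are those in captured and amplified mRNA, and whether capture of histone transcripts differed between the groups was not tested. The 4 members that fell were variant histones, Cenpa, H2afv, H2afj and H3f3a. Cenpa, the H3 variant of centromeres, fell (53.6, 80.7, 66.7 and 56.2 FPKM in CabZ Het 1 to 4 and 13.1, 14.4, 20.6 and 12.5 FPKM in CabZ KO 1 to 4; log2 difference -2.02). H2afv, an H2A.Z, was 21.1–30.8 FPKM in CabZ Het against 4.77–9.04 FPKM in CabZ KO, and H2afj was 125–238 FPKM in CabZ Het against 39.8–81.5 FPKM in CabZ KO (log2 differences -1.95 and -1.601).

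Genes expressed in a burst at the 2-cell stage went both ways. Of 68 tested two-cell-stage genes, 18 rose and 11 fell (7 without CabZ KO 4), and the median log2 difference was 0.37. The largest increases were in predicted genes on chromosome 12. Gm6803 was 21.5, 8.403, 13.9 and 11.1 FPKM in CabZ Het 1 to 4 and 148, 217, 182 and 73.5 FPKM in CabZ KO 1 to 4 (log2 difference 3.37). Gm5039, Gm8332 and Gm8300 rose by 2.92, 2.71 and 2.52 on the log2 scale. The zinc finger genes Zscan4c and Zscan4d were not called: Zscan4c was 98.7, 134, 53.7 and 187 FPKM in CabZ Het 1 to 4 and 287, 235, 256 and 71.5 FPKM in CabZ KO 1 to 4, with CabZ KO 4 below 3 of the Het libraries. Without CabZ KO 4, the log2 difference of Zscan4c was 1.26 and passed the test. Another copy, Zscan4e, named after its values were seen, rose (log2 difference 1.66), and reads may be shared among the copies. Zscan4d was 59.9–124 FPKM in CabZ Het against 37.8–179.8 FPKM in CabZ KO, Zfp352 was 26.2–53.7 FPKM in CabZ Het against 17.1–56.3 FPKM in CabZ KO and Tcstv1 was 36.1–126 FPKM in CabZ Het against 100.3–184 FPKM in CabZ KO, each with overlap. Dppa4, a DNA-binding protein that acts upstream of the 2-cell programme in stem cells, fell (33.2, 49.3, 46.3 and 34.8 FPKM in CabZ Het 1 to 4 and 9.603, 9.67, 12.2 and 3.72 FPKM in CabZ KO 1 to 4; log2 difference -2.17, adjusted p = 0.0006). Tdpoz2 and Tdpoz4, BTB domain genes of one cluster, fell (9.01–26.8 FPKM in CabZ Het against 1.44–6.72 FPKM in CabZ KO for Tdpoz2 and 5.598–26.6 FPKM in CabZ Het against 0–4.11 FPKM in CabZ KO for Tdpoz4), and their relative Tdpoz3 overlapped (0–2.98 FPKM in CabZ Het against 1.16–5.18 FPKM in CabZ KO). Tdpoz4 loses its call with a pseudocount of 0.1, without the filter on low values and on the values as deposited.

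The Obox homeobox family split within itself. In the reproductive homeobox list, pseudogene copies included, 12 of 35 tested members were higher and 13 lower. Obox7 rose (27.5, 14.2, 14.1 and 22.9 FPKM in CabZ Het 1 to 4 and 97.6, 104, 116 and 123 FPKM in CabZ KO 1 to 4; log2 difference 2.48, adjusted p = 0.00018). Obox8 fell (298, 386, 374 and 327 FPKM in CabZ Het 1 to 4 and 75.6, 54.1, 70.1 and 20.7 FPKM in CabZ KO 1 to 4; log2 difference -2.77, adjusted p = 0.0004). Obox6, which is expressed from the 2-cell stage, fell as well (133–207 FPKM in CabZ Het against 21.1–52.5 FPKM in CabZ KO; log2 difference -2.17). Of 8 tested pseudogene copies named for Obox3, 6 fell and 0 rose, and of 9 named for Obox4, 8 rose and 1 fell. Reads may be shared among such copies, so they cannot be counted as independent genes. Obox3-ps6 was 359, 371, 393 and 231 FPKM in CabZ Het 1 to 4 and 51.8, 43.2, 158 and 3.59 FPKM in CabZ KO 1 to 4, and Obox3-ps2 was 294–681 FPKM in CabZ Het against 9.62–253 FPKM in CabZ KO. Their lowest values were both in CabZ KO 4, and neither was called without the filter on low values or on the values as deposited. Obox4-ps3 was 0, 0, 1.205 and 0.7 FPKM in CabZ Het 1 to 4 and 19.7, 19.6, 13.1 and 12.2 FPKM in CabZ KO 1 to 4, 0–5 estimated reads per CabZ Het library, and Obox4-ps28 was 0.000567–0.923 FPKM in CabZ Het against 3.95–18.3 FPKM in CabZ KO.

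The Oogenesin and Prame genes, related leucine-rich repeat genes of the germline and early embryo, also divided. Of 15 tested, 4 rose and 3 fell, and their median (-0.05) turns with the scaling. Oog3 was among the most abundant transcripts, at 1380.1, 1138, 1225 and 1099 FPKM in CabZ Het 1 to 4 and 3553, 2794, 2796 and 3154 FPKM in CabZ KO 1 to 4 (log2 difference 1.34, adjusted p = 0.00032). Oog2 and Oog4 rose (13.8–24.8 FPKM in CabZ Het against 52.1–82.5 FPKM in CabZ KO for Oog2 and 6.06–12.7 FPKM in CabZ Het against 21.5–43.3 FPKM in CabZ KO for Oog4; log2 differences 1.63 and 1.63). Pramel4 fell (23.95, 22.4, 22.8 and 25.1 FPKM in CabZ Het 1 to 4 and 5.19, 4.49, 4.34 and 1.28 FPKM in CabZ KO 1 to 4; log2 difference -2.44) and Pramel7 fell (10.6–23.2 FPKM in CabZ Het against 2.02–5.96 FPKM in CabZ KO; log2 difference -1.84).

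**Figure D3:**
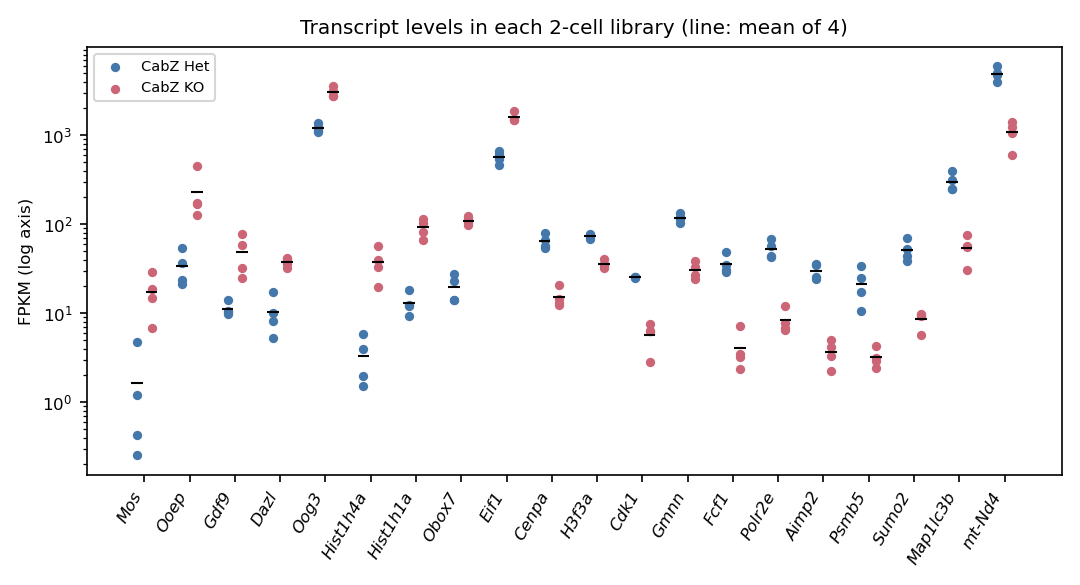
FPKM on a log axis of 20 genes in each 2-cell library, CabZ Het in blue and CabZ KO in red, with a line at the mean of 4. From Mos to Eif1 every CabZ KO value lies above every CabZ Het value, and from Cenpa to mt-Nd4 every CabZ KO value lies below.

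Factors that make ribosomes fell together. Cytosolic ribosomal protein genes themselves fell in 61 of 85 tested (median -1.36). Of 95 listed genes for rRNA processing and ribosome assembly, 68 were tested, 40 fell and 0 rose, 0 lay higher, and the median log2 difference was -1.26. Fcf1, a nuclease-like subunit of the small-subunit processome, was 30.8, 34.5, 48.3 and 28.7 FPKM in CabZ Het 1 to 4 and 3.24, 3.45, 7.14 and 2.33 FPKM in CabZ KO 1 to 4 (log2 difference -2.91, SE 0.29, adjusted p = 0.0002). Every CabZ KO value was under the lowest CabZ Het value. Mak16 and Rpf2, large-subunit assembly factors, fell (38.8–58.6 FPKM in CabZ Het against 4.04–12.8 FPKM in CabZ KO for Mak16 and 8.503–13.9 FPKM in CabZ Het against 0.354–2.603 FPKM in CabZ KO for Rpf2; log2 differences -2.42 and -2.398). Nop16, a nucleolar protein of the same pathway, was 60.995, 101, 116 and 54.9 FPKM in CabZ Het 1 to 4 and 9.71, 7.62, 13.3 and 3.81 FPKM in CabZ KO 1 to 4 (log2 difference -3.17). Znhit3, a factor for assembly of box C/D snoRNPs, was 194, 341, 336 and 234 FPKM in CabZ Het 1 to 4 and 32.7, 23.4, 41.4 and 18.01 FPKM in CabZ KO 1 to 4 (log2 difference -3.24, adjusted p = 0.00015). On the values as deposited, the number of falls in the rRNA list dropped to 10, with a median of -0.53.

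The polymerases that make rRNA and tRNA were lower too. Of 23 tested genes for RNA polymerases I and III and their factors, 9 fell, 0 rose, and the median was -0.81. Polr1e, a subunit of polymerase I, was 9.31, 12.8, 13.9 and 9.58 FPKM in CabZ Het 1 to 4 and 1.23, 0.71, 2.12 and 0.153 FPKM in CabZ KO 1 to 4 (log2 difference -2.67, adjusted p = 0.00024). Polr1c, shared by polymerases I and III, was 46.7, 71.1, 65.9 and 42.3 FPKM in CabZ Het 1 to 4 and 11.01, 9.65, 13.6 and 5.19 FPKM in CabZ KO 1 to 4 (log2 difference -2.44). Polr3k and Gtf3c6, a subunit and an initiation factor of polymerase III, fell (70.9–117 FPKM in CabZ Het against 21.1–38.6 FPKM in CabZ KO for Polr3k and 10.3–22.3 FPKM in CabZ Het against 1.95–4.31 FPKM in CabZ KO for Gtf3c6).

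Messenger RNA synthesis and splicing followed in smaller shares. Of 61 tested genes for RNA polymerase II, general factors and Mediator, 20 fell and 2 rose, or 4 without CabZ Het 4 and 5 without CabZ KO 1 (median -0.53). Polr2e, Polr2h and Polr2k, subunits that all the polymerases share, fell (42.7–68.04 FPKM in CabZ Het against 6.54–11.9 FPKM in CabZ KO for Polr2e, 73.3–106 FPKM in CabZ Het against 9.77–24.4 FPKM in CabZ KO for Polr2h and 12.2–19.4 FPKM in CabZ Het against 1.202–3.67 FPKM in CabZ KO for Polr2k). Med29 of the Mediator was 59.8, 113, 103 and 75.1 FPKM in CabZ Het 1 to 4 and 20.3, 14.4, 21.4 and 4.92 FPKM in CabZ KO 1 to 4 (log2 difference -2.57). The pair that rose comprised Tbpl2, the oocyte form of the TATA-binding protein, and Gtf2a2, a subunit of its partner TFIIA. Tbpl2 was 0.409, 0.0506, 0.171 and 0.205 FPKM in CabZ Het 1 to 4 and 2.9995, 2.97, 2.17 and 2.75 FPKM in CabZ KO 1 to 4, and Gtf2a2 was 32.2, 21.2, 22.8 and 34.98 FPKM in CabZ Het 1 to 4 and 69.6, 93.4, 86.7 and 118 FPKM in CabZ KO 1 to 4 (log2 differences 1.62 and 1.69). Of 68 tested splicing genes, 19 fell and 1 rose (median -0.83). The falls numbered 34 with a pseudocount of 0.1, under which falls over all 7798 genes numbered 1992 against 1594. Sf3b6 of the U2 snRNP fell (39.8, 53.6, 69.6 and 46.03 FPKM in CabZ Het 1 to 4 and 9.44, 11.3, 17.1 and 8.15 FPKM in CabZ KO 1 to 4; log2 difference -2.11). Srsf7, Snrpa and Rbm8a fell by 2.08, 2.01 and 1.92 on the log2 scale. Lsm1, which acts in mRNA decapping rather than in splicing, was the member that rose (15.9, 7.83, 8.68 and 15.9 FPKM in CabZ Het 1 to 4 and 35.9, 35.7, 36.6 and 43.4 FPKM in CabZ KO 1 to 4; log2 difference 1.63).

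Promoter sequences of the protein-coding genes, ribosomal proteins left out, differed in composition between the directions. Promoters are RefSeq windows of 300 bases, 250 before and 50 after the start (GRCm38.p6), found for 490 genes that rose, 826 that fell and 2655 that were not called. The motif CCGGAAG, the core bound by ETS factors, read on both strands, was in 28.0% of the promoters of genes that fell, 21.4% of those not called, 10.2% of those that rose and 9.12% of all 27025 promoters. The motif TATAAA, the TATA box core, was in 14.9% of promoters of genes that rose, 8.11% of those that fell, 8.32% of those not called and 14.2% of all. The GC box GGGCGG was in 58.8% of promoters of genes that fell, 62.2% of those not called, 47.1% of those that rose and 35.9% of all. Median CpG counts per window were 21 in genes that fell and in genes not called, 11 in genes that rose and 7 in all promoters. CCGGAAG was in 22 of 56 promoters of the rRNA processing list (39.3%), and TATAAA in 13 of 35 of the two-cell-stage list (37.1%). The share with CCGGAAG did not follow direction list by list, since it was also in 9 of 22 promoters of the actin list (40.9%), which had more rises than falls, and in 13 of 33 of the heat shock list (39.4%). These shares are descriptions of the windows. Base composition differs between the groups along with the motifs, and its part in the shares was not tested.

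As examples, the 120 bases before the start are printed for genes that carry these motifs. They are 4 genes that fell, from polymerase, tRNA synthetase, autophagy and mitochondrial import groups, with CCGGAAG or its reverse complement in capitals. Oog2 and Oog3, which rose, have TATAAA in capitals. Most promoters of either direction lack the motif shown, so these examples do not stand for their groups. The stretches are Polr1c chr17:46248046-46248165 (minus strand), Aimp2 chr5:143909840-143909959 (minus), Gabarapl2 chr8:111940583-111940702 (plus), Tomm22 chr15:79670748-79670867 (plus), Oog2 chr4:144190597-144190716 (plus) and Oog3 chr4:144162652-144162771 (minus).
Polr1c: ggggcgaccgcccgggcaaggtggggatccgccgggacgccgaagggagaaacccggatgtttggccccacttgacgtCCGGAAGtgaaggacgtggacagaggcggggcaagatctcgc
Aimp2: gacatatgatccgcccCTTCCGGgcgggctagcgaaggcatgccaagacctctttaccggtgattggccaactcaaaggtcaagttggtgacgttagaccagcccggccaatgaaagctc
Gabarapl2: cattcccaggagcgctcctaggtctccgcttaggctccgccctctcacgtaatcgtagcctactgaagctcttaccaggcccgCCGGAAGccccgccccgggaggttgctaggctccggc
Tomm22: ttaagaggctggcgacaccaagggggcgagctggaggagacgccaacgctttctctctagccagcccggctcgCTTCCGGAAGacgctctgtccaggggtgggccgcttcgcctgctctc
Oog2: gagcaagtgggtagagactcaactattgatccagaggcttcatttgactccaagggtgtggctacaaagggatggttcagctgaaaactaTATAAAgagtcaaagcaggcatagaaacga
Oog3: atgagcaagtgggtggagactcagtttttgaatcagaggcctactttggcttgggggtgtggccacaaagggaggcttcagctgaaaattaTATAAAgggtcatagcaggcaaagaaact
In Tomm22 the forward and reverse motif overlap in 1 palindrome. In Oog2 and Oog3 the capitals begin 30 and 29 bases before the start.

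Translation factors fell in 17 of 43 tested and rose in 2 (median -0.85). Eif3g and Eif3m, subunits of the initiation scaffold eIF3, were 15.97–39.3 FPKM in CabZ Het against 2.09–8.41 FPKM in CabZ KO for Eif3g and 9.29–14.6 FPKM in CabZ Het against 0.959–2.45 FPKM in CabZ KO for Eif3m (log2 differences -2.43 and -2.14). Eif6, which keeps ribosomal subunits apart, was 29.5, 53.6, 44.8 and 43.7 FPKM in CabZ Het 1 to 4 and 11.4, 6.55, 8.64 and 6.42 FPKM in CabZ KO 1 to 4 (log2 difference -2.25, adjusted p = 0.00022). Both that rose were forms of the start-codon selection factor eIF1: Eif1, at 622, 539, 657 and 463 FPKM in CabZ Het 1 to 4 and 1509, 1479, 1500.3 and 1879 FPKM in CabZ KO 1 to 4, and Eif1b, at 19.6–29.3 FPKM in CabZ Het against 48.2–89.2 FPKM in CabZ KO. Their log2 differences were 1.48 and 1.38. Of 9 aminoacyl-tRNA synthetase genes tested, 2 fell (4 without CabZ Het 1 or CabZ KO 1), among them the synthetase complex scaffold Aimp2 (24.3, 34.8, 35.5 and 25.8 FPKM in CabZ Het 1 to 4 and 3.27, 4.93, 4.16 and 2.26 FPKM in CabZ KO 1 to 4; log2 difference -2.76). Mcts2, a gene related to a translation re-initiation factor, was 153, 141, 199 and 142 FPKM in CabZ Het 1 to 4 and 43.3, 3.33, 11.6 and 37.9 FPKM in CabZ KO 1 to 4 (log2 difference -3.18).

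Proteasome and lysosome genes fell in larger shares than all genes tested, and ubiquitin and chaperone genes did not. Of 42 tested proteasome genes, 21 fell, 0 rose, and the median log2 difference was -0.99. Psmb5, which carries the chymotrypsin-like activity, was 10.4, 33.7, 24.6 and 17.1 FPKM in CabZ Het 1 to 4 and 4.29, 2.41, 2.86 and 3.17 FPKM in CabZ KO 1 to 4 (log2 difference -2.33, adjusted p = 0.0005). Psma6 and Psmb1, other subunits of the core particle, and the assembly chaperone Psmg3 fell (8.83–14.6 FPKM in CabZ Het against 1.47–2.64 FPKM in CabZ KO for Psma6, 18.5–26.6 FPKM in CabZ Het against 1.63–7.79 FPKM in CabZ KO for Psmb1 and 8.14–12.5 FPKM in CabZ Het against 0.417–3.01 FPKM in CabZ KO for Psmg3). In the ubiquitin and SUMO list 8 of 41 fell (19.5%) and 2 rose (4 without CabZ Het 4, KO 1 or KO 2), and its median of -0.17 turns with the scaling. Sumo2 fell (38.6, 52.5, 70.04 and 44.1 FPKM in CabZ Het 1 to 4 and 9.39, 5.65, 9.54 and 9.91 FPKM in CabZ KO 1 to 4; log2 difference -2.44), and Skp1a, a scaffold of SCF ubiquitin ligases, rose (74.6, 92.4, 115 and 99.6 FPKM in CabZ Het 1 to 4 and 230.5, 203, 237 and 332 FPKM in CabZ KO 1 to 4; log2 difference 1.38). Among 40 heat shock and chaperone genes, 8 fell (20%, 5 genes without CabZ KO 4) and 0 rose. Of these 40, 31 lay lower, and their median was -0.54 against -0.11 over all genes tested. Pfdn6 of prefoldin was 61.3–128 FPKM in CabZ Het against 11.5–29.7 FPKM in CabZ KO, and Hspb1 was 69.9–118 FPKM in CabZ Het against 10.3–59.2 FPKM in CabZ KO (log2 differences -1.91 and -1.596). Hspb1 was not called without the filter on low values or on the values as deposited. Of 29 lysosome and autophagy genes, 11 fell and 2 rose (median -0.78). Map1lc3b and Gabarapl2, ATG8 proteins that coat autophagosomes, fell, Map1lc3b at 249.8, 311, 395 and 251 FPKM in CabZ Het 1 to 4 and 56.8, 55.2, 75.8 and 30.9 FPKM in CabZ KO 1 to 4 (log2 difference -2.48) and Gabarapl2 at 38.8–65.3 FPKM in CabZ Het against 8.81–13.3 FPKM in CabZ KO (log2 difference -1.995). The lysosomal protease Ctsc and membrane protein Cd63 fell by 2.13 and 2.01 on the log2 scale, and Atp6v1f, a subunit of the proton pump, rose (16.03–27.2 FPKM in CabZ Het against 58.2–94.2 FPKM in CabZ KO; log2 difference 1.77).

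Mitochondrial transcripts were lower in parts of the organelle. Of the 13 mRNAs that the mitochondrial genome encodes, 8 fell and 0 rose, all 13 lay lower, and the median log2 difference was -1.22. mt-Nd4, a complex I subunit, was 5939, 4011, 4978 and 4762 FPKM in CabZ Het 1 to 4 and 1421, 1229.99, 1064 and 593 FPKM in CabZ KO 1 to 4 (log2 difference -2.25, SE 0.28, adjusted p = 0.00032). mt-Nd5 and mt-Cytb were 1859–2925 FPKM in CabZ Het against 274–592 FPKM in CabZ KO for mt-Nd5 and 25150.3–35803 FPKM in CabZ Het against 3451–8975 FPKM in CabZ KO for mt-Cytb (log2 differences -2.34 and -2.14). With quantile normalisation mt-Cytb was at -0.83 and lost its call, and 5 of the 13 were called. Nuclear genes for mitochondrial ribosomal proteins fell in 29 of 70 and rose in 2 (median -0.92). Mrpl20 was 13.3, 27.9, 29.9 and 17.4 FPKM in CabZ Het 1 to 4 and 3.62, 2.68, 4.61 and 1.94 FPKM in CabZ KO 1 to 4, and Mrpl12 was 17.6–46.99 FPKM in CabZ Het against 3.82–10.4 FPKM in CabZ KO (log2 differences -2.43 and -2.17). Import genes fell in 13 of 32 (median -0.65) and rose in 1 (0 without CabZ Het 2, Het 3 or KO 4). The carrier chaperone Timm10 was 34.04, 65.9, 52.9 and 50.1 FPKM in CabZ Het 1 to 4 and 8.51, 9.83, 20.8 and 3.85 FPKM in CabZ KO 1 to 4, and Tomm5, Tomm22 and Timm17a, pieces of the outer and inner membrane channels, were 129–251 FPKM in CabZ Het against 20.7–53.6 FPKM in CabZ KO for Tomm5, 92.6–129 FPKM in CabZ Het against 19.6–35.97 FPKM in CabZ KO for Tomm22 and 22.3–51.8 FPKM in CabZ Het against 3.34–14.1 FPKM in CabZ KO for Timm17a.

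Nuclear genes of the respiratory complexes were divided. Complex I had 9 lower (25%) and 5 higher (13.9%) of 36 (3 higher without CabZ Het 1), and its median of -0.23 turns with the scaling. Those shares lie near the 20.4% lower and 16.9% higher over all genes tested. Ndufb7 fell (6.62–21.8 FPKM in CabZ Het against 1.45–2.901 FPKM in CabZ KO; log2 difference -2.25) and Ndufs5 rose (3.49, 2.58, 4.18 and 3.91 FPKM in CabZ Het 1 to 4 and 12.4, 9.66, 11.9 and 22.3 FPKM in CabZ KO 1 to 4; log2 difference 1.68). In complexes II and III 5 of 13 fell (3 without CabZ Het 2), among them Cyc1 (10.1–21.9 FPKM in CabZ Het against 0.35–3.94 FPKM in CabZ KO) and Uqcr10 (91.8–126 FPKM in CabZ Het against 27.4–43.1 FPKM in CabZ KO). Uqcc3, an assembly factor of complex III, was 114, 216, 312 and 196 FPKM in CabZ Het 1 to 4 and 22.4, 36.7, 42.5 and 6.55 FPKM in CabZ KO 1 to 4 (log2 difference -3.095). In complex IV 4 fell and 3 rose of 23, and its median of -0.03 turns with the scaling (0.21 with equal medians). Cox6c rose (20.7, 19.8, 23.9 and 29.1 FPKM in CabZ Het 1 to 4 and 74.1, 55.1, 69.9 and 94.8 FPKM in CabZ KO 1 to 4; log2 difference 1.5997), as did the processed copy Cox6c2 (8.42–9.19 FPKM in CabZ Het against 31.3–63.5 FPKM in CabZ KO), which can take reads from it. ATP synthase genes fell in 4 of 16 (7 without CabZ Het 1), among them Atp5g1 (51.5–81.3 FPKM in CabZ Het against 15.1–26.7 FPKM in CabZ KO). In glycolysis 2 of 9 rose (1 without CabZ Het 1 or CabZ KO 1), with a median of -0.11 that turns with the scaling. Ldhb, which turns lactate into pyruvate, was 17.3, 16.5, 17.1 and 25.1 FPKM in CabZ Het 1 to 4 and 50.7, 51.9, 105 and 358 FPKM in CabZ KO 1 to 4 (log2 difference 2.35, adjusted p = 0.0058), with the highest values in CabZ KO 3 and 4.

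Nucleotide and one-carbon metabolism fell in 15 of 28 tested genes and rose in 1 (median -1.07). Nme1 and Nme2, kinases that make nucleoside triphosphates, were 9.005–18.9 FPKM in CabZ Het against 1.996–3.77 FPKM in CabZ KO for Nme1 and 28.9–43.5 FPKM in CabZ Het against 4.39–12.6 FPKM in CabZ KO for Nme2 (log2 differences -2.01 and -2.41). Mat2a, which makes the methyl donor S-adenosylmethionine, was 16.6, 23.7, 19.7 and 18.9 FPKM in CabZ Het 1 to 4 and 4.08, 4.27, 3.13 and 1.55 FPKM in CabZ KO 1 to 4 (log2 difference -2.33, adjusted p = 0.00022). Aprt, of adenine salvage, fell (21.6–57.4 FPKM in CabZ Het against 5.89–9.82 FPKM in CabZ KO; log2 difference -2.097). Shmt2, a mitochondrial source of one-carbon units, was the riser (9.66, 5.72, 3.06 and 10.9 FPKM in CabZ Het 1 to 4 and 18.97, 31.3, 23.5 and 30.7 FPKM in CabZ KO 1 to 4; log2 difference 1.79).

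**Figure D4:**
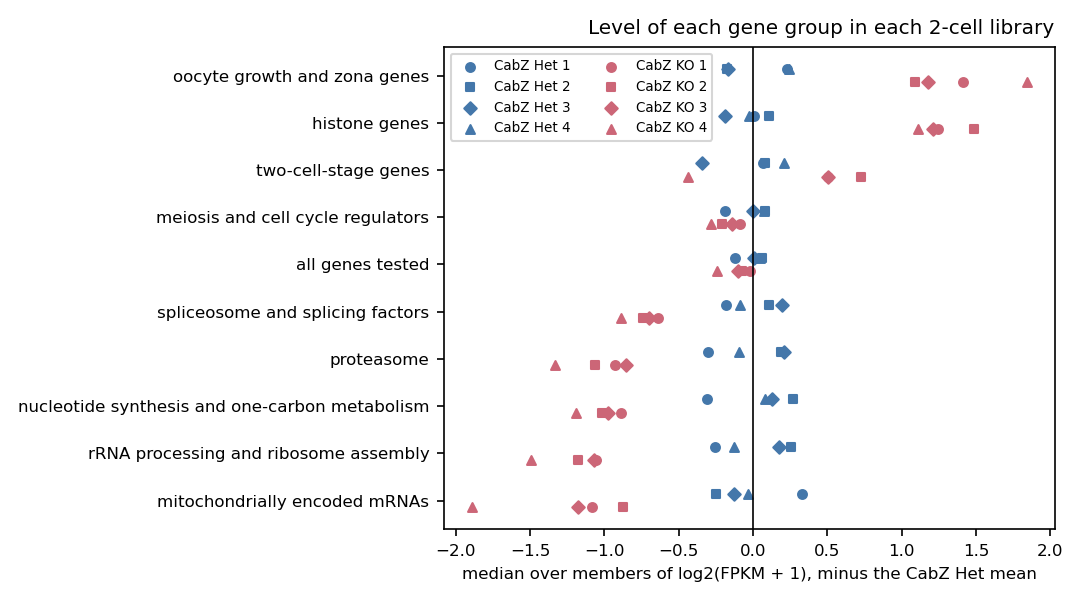
Median over the members of 10 gene groups of log2(FPKM + 1) minus the CabZ Het mean, for each 2-cell library. Every CabZ KO library lies above every CabZ Het library for the oocyte and histone genes and below for the bottom 5 groups, while in the two-cell-stage genes CabZ KO 4 (-0.43) lies below and the other CabZ KO libraries (0.51 to 0.72) lie above all CabZ Het libraries.

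Cell cycle genes were mixed. Of 37 tested regulators of meiosis and the cell cycle, 9 fell and 5 rose (3 without CabZ Het 2, CabZ Het 3 or CabZ KO 4), and the median of -0.15 turns with the scaling. Their shares, 24.3% lower and 13.5% higher, lie near those over all genes tested (20.4% and 16.9%). Cdk1, the mitotic kinase, was 25.5, 25.1, 25.3 and 25.5 FPKM in CabZ Het 1 to 4 and 6.31, 6.24, 7.62 and 2.83 FPKM in CabZ KO 1 to 4 (log2 difference -2.03, SE 0.25, adjusted p = 0.00031). The CabZ Het libraries were nearly identical, and the CabZ KO libraries lay far under them. Its cyclin partner Ccnb1 and the G1/S cyclin Ccne1 fell (113–164 FPKM in CabZ Het against 32.7–50.1 FPKM in CabZ KO for Ccnb1 and 14.5–22.2 FPKM in CabZ Het against 3.29–8.91 FPKM in CabZ KO for Ccne1; log2 differences -1.68 and -1.76). Chek1, the replication checkpoint kinase, rose (20.8, 14.05, 12.2 and 19.2 FPKM in CabZ Het 1 to 4 and 35.3, 41.2, 40.3 and 43.8 FPKM in CabZ KO 1 to 4; log2 difference 1.26). Cks2, a Cdk-binding protein, was called higher with touching groups (403, 235, 295 and 259.8 FPKM in CabZ Het 1 to 4 and 402, 603, 674 and 886 FPKM in CabZ KO 1 to 4; log2 difference 1.08) and fell short of the 2-fold threshold without CabZ Het 2 (0.97) or CabZ KO 4 (0.90). Of 34 DNA replication genes, 8 fell and 2 rose (the median of -0.40 is above 0 on the values as deposited). Gmnn, which blocks origin relicensing, fell (116, 119.7, 135 and 103 FPKM in CabZ Het 1 to 4 and 24.03, 32.8, 38.9 and 26.9 FPKM in CabZ KO 1 to 4; log2 difference -1.93, adjusted p = 0.0002). Prim1, the primase subunit, fell (5.94–12.03 FPKM in CabZ Het against 0.748–1.89 FPKM in CabZ KO; log2 difference -2.09). Aurka and Prc1, of the spindle, fell (5.64–14.9 FPKM in CabZ Het against 2.04–3.04 FPKM in CabZ KO for Aurka and 11.8–25.7 FPKM in CabZ Het against 2.06–5.27 FPKM in CabZ KO for Prc1; log2 differences -1.68 and -2.01).

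Redox and actin genes rose in larger shares than all genes tested. In the redox and glutathione list 7 of 27 rose (25.9%, against 16.9% over all genes tested) and 4 fell (2 without CabZ KO 4), with a median of 0.25. The rises numbered 6 to 8 with each library left out. Glrx, a glutaredoxin, was 3.85, 2.59, 1.52 and 6.44 FPKM in CabZ Het 1 to 4 and 20.9, 16.5, 17.6 and 37.5 FPKM in CabZ KO 1 to 4 (log2 difference 2.43, adjusted p = 0.00068). Gstm5, a glutathione transferase, was 111–174 FPKM in CabZ Het against 414–801 FPKM in CabZ KO (log2 difference 1.93), and Gpx4, which detoxifies lipid peroxides, fell (3.28–6.401 FPKM in CabZ Het against 0.741–1.19998 FPKM in CabZ KO; log2 difference -1.503). In the actin and adhesion list 8 of 25 rose (32%, 6 to 9 genes with each library left out) and 3 fell (median 0.42). Arpc5l, of the Arp2/3 complex, was 13.99, 15.2, 15.7 and 16.2 FPKM in CabZ Het 1 to 4 and 44.5, 69.3, 61.7 and 65.2 FPKM in CabZ KO 1 to 4 (log2 difference 1.89, adjusted p = 0.00018). Actb rose (27.4–42.4 FPKM in CabZ Het against 76.8–93.2 FPKM in CabZ KO; log2 difference 1.301). Tmsb4x, which binds actin monomers, overlapped between groups (15.3–84.6 FPKM in CabZ Het against 82.1–199 FPKM in CabZ KO) and lost its call without CabZ Het 3, CabZ KO 2 or CabZ KO 4 (log2 differences 1.54, 1.54 and 1.49). Stress genes went both ways, with 3 of 20 in the stress response list higher and 4 lower (2 without CabZ Het 2), and a median of -0.34 that turns with the scaling. Their shares, 15% higher and 20% lower, lie near those over all genes tested (16.9% and 20.4%). Ddit3, a transcription factor of the unfolded protein response, rose (10.6, 4.65, 4.68 and 13.7 FPKM in CabZ Het 1 to 4 and 26.9, 29.96, 29.5 and 22.8 FPKM in CabZ KO 1 to 4; log2 difference 1.71), and Gadd45g, a growth arrest gene, rose (1.97, 1.12, 4.76 and 5.49 FPKM in CabZ Het 1 to 4 and 24.3, 15.1, 14.5 and 15.2 FPKM in CabZ KO 1 to 4; log2 difference 2.19). Dnajb9, an ER chaperone partner, and Ppp1r15a, which directs a phosphatase to eIF2 alpha, fell by 1.46 and 1.29 on the log2 scale. Gadd45g was the 1 member of 23 in the Bcl2 and p53 list that rose (2 did without CabZ Het 4), and 5 fell, among them Cdkn1a, a Cdk inhibitor (fell by 1.33, with overlap between groups), and the survival factor Mcl1 (fell by 1.16).

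The 12 genes with the largest increase, among genes averaging 10 FPKM or more whose groups did not overlap, were led by a local cluster. Of these 12, 8 (Gm8701, Gm8711, Gm4301, Gm4308, Gm4302, Gm4305, Gm4312 and Gm8723) are predicted genes and unprocessed pseudogenes within chr10:100330540-100382561. Gm8701 was 0.00587, 1.88, 0 and 0 FPKM in CabZ Het 1 to 4 and 64.3, 129.5, 46.005 and 30.04 FPKM in CabZ KO 1 to 4, 0–13 estimated reads in CabZ Het and 153–709 in CabZ KO. Gm4301 and Gm4308 have the same values in every CabZ Het library, so reads of near-identical copies may have been shared and the 8 cannot be counted as independent genes. Their log2 differences ran from 4.08 to 5.51. Kera, a corneal proteoglycan gene that lies on the same chromosome (chr10:97606879-97613693), was 0.277, 0.24, 0.0368 and 0.356 FPKM in CabZ Het 1 to 4 and 44.8, 56.5, 57.4 and 58.9 FPKM in CabZ KO 1 to 4 (log2 difference 5.496, SE 0.17, adjusted p = 5.8e-07). The noncoding 1700116B05Rik was 0.736, 1.11, 1.65 and 2.13 FPKM in CabZ Het 1 to 4 and 30.1, 41.1, 34.2 and 53.8 FPKM in CabZ KO 1 to 4 (log2 difference 4.09). Vaultrc5, a vault RNA, was 2.64–10.6 FPKM in CabZ Het against 41.9–226 FPKM in CabZ KO, and Lyz2, a lysozyme of myeloid cells, was 0, 0.706, 0.201 and 0.705 FPKM in CabZ Het 1 to 4 and 1.68, 18.9, 29.1 and 164 FPKM in CabZ KO 1 to 4, with most of its mean in CabZ KO 4. Chromosome 10 as a whole had 66 of 348 tested genes higher (18.97%), near the background. Kera lies 21.9 Mb and the cluster 24.6–24.7 Mb from Cabin1, the deleted gene. Within the chromosome, 14 of 46 tested genes lying 10–25 Mb beyond Cabin1 on that side were higher (30.4%) and 7 lower, and 4 of 75 lying within 10 Mb on that side were higher (5.33%) and 21 lower. On the other side, 12 of 44 genes at 10–25 Mb (27.3%) and 0 of 12 within 10 Mb were higher. Farther out, 18 of 88 genes at 25–60 Mb on the side of Kera were higher (20.5%). On the other side, 11 of 42 at 25–50 Mb (26.2%) and 7 of 41 at 50–80 Mb (17.1%) were. Kera and the 8 genes of the local cluster are among the 14 higher genes at 10–25 Mb and make up most of them.

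The largest decreases, by the same rule and without ribosomal proteins, included Znhit3, Mcts2, Nop16, Uqcc3 and Obox3-ps6, described above. AA414992, of unclear coding potential, was 80.6, 56.8, 50.2 and 59.4 FPKM in CabZ Het 1 to 4 and 1.41, 6.69, 6.11 and 0 FPKM in CabZ KO 1 to 4 (log2 difference -4.19). Alppl2, a phosphatase of the early embryo and naive stem cells, was 27.2, 61.7, 47.2 and 33.01 FPKM in CabZ Het 1 to 4 and 5.87, 3.26, 5.27 and 1.17 FPKM in CabZ KO 1 to 4 (log2 difference -3.21). Platr17 was 13.6–37.1 FPKM in CabZ Het against 0–4.503 FPKM in CabZ KO. Of the remainder, 3 were pseudogenes, Gtpbp4-ps2, Gm11221 and Gm12418. The parents that sequence search gave for the last pair were Fcf1 and Dimt1, both of ribosome assembly, and Gm11221 was 248–410.4 FPKM in CabZ Het against 22.7–60.1 FPKM in CabZ KO.

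Pseudogene copies are given here with their parent genes. Of 1664 pseudogenes tested, 310 were higher and 395 lower, and a parent was found for 1500. The 8 tested copies of Eif1 lay higher (6 called), with Eif1 at 1.48. The 5 copies of Sumo2 were all called lower, with Sumo2 at -2.44, as were 4 of 5 copies of Map1lc3b. Copies of H3f3a did not follow it: 7 of 19 rose and 2 fell, with H3f3a at -1.03. Reads that match a copy and its parent cannot be assigned between them from these tables.

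The same genes were then compared with germinal vesicle (GV) oocytes, fully grown oocytes before maturation, from the same Cabin1 lines (4 CabZ Het and 4 CabZ KO libraries). There, 131 of 6339 tested genes were higher (2.07%) and 53 lower (0.836%). Of 4994 genes tested at both stages, the KO difference at the 2-cell stage exceeded that in GV oocytes in 844 (16.9%) and lay under it in 1042 (20.9%), by a limma contrast of the 2 differences. Oocyte growth and zona genes had a median of 1.38 at the 2-cell stage and -0.13 in GV oocytes over the same 35 genes, and 29 differed upwards between stages and 0 downwards. For Mos the GV difference was -0.101, and the stage difference was 3.02 (SE 0.56, adjusted p = 0.00036). Histone genes were at 1.498 and 0.11 over 36 genes, with 20 differing upwards and 4 downwards. For rRNA processing the medians were -1.27 and 0.02 over 53 genes, with 36 differing downwards and 0 upwards. Proteasome genes had -1.005 and -0.03 over 37, with 19 downwards.

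Mitochondrially encoded mRNAs stood apart from that pattern. They were lower at both stages, with medians of -1.22 and -0.95 over the 13 genes and 5 called lower in GV oocytes. For 1 of the 13, which was not mt-Nd5, the stage difference passed both thresholds. mt-Nd5 was at -1.42 in GV oocytes (adjusted p = 0.0056) against -2.34 in 2-cell embryos. Gtsf1l reversed between the stages: it was higher in CabZ KO GV oocytes (log2 difference 2.44, adjusted p = 0.00015) and lower in 2-cell embryos (59.04, 51.1, 103 and 77.8 FPKM in CabZ Het 1 to 4 and 8.33, 5.83, 7.88 and 9.62 FPKM in CabZ KO 1 to 4; log2 difference -3.01), a stage difference of -5.45 (SE 0.34, adjusted p = 7.7e-08). Mcts2 reversed as well, with log2 differences of 1.33 in GV oocytes (adjusted p = 0.023 by limma) and -3.18 in 2-cell embryos. Tceal8 was higher at both, by 5.39 in GV oocytes and 2.48 in 2-cell embryos. Gm5039 rose by about the same in both, 2.87 and 2.92, with a stage difference of 0.05 (SE 0.46, adjusted p = 0.93). Two-cell-stage genes had medians of 0.56 in 2-cell embryos and 0.26 in GV oocytes over 24 genes. In GV oocytes 3 of the 24 were called higher and 1 lower, against 2.07% and 0.836% of all genes tested there. Zscan4d was called higher in GV oocytes (log2 difference 1.33, adjusted p = 0.0061 by limma), and Zscan4c was not (1.44, adjusted p = 0.089). Ddit3 was higher at both (1.16 and 1.71), and Aprt and Hspb1 lower at both. Kera (3.47 in GV oocytes and 5.496 in 2-cell embryos) and 1700116B05Rik (1.83 and 4.09) were also called higher at both.

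**Figure D5:**
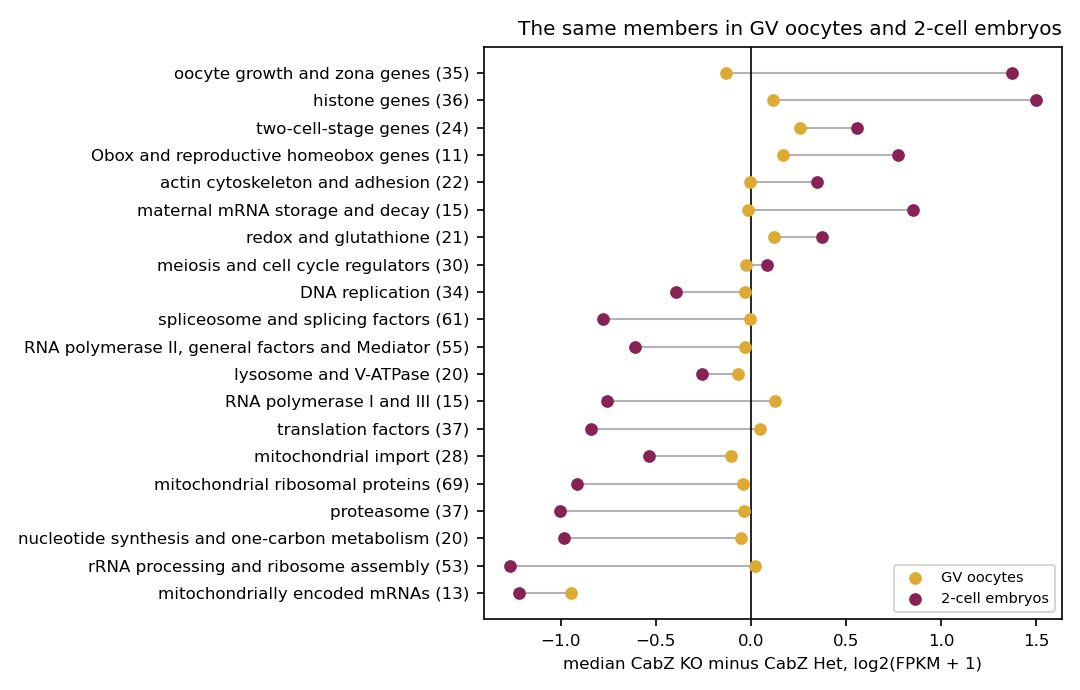
Median log2 difference (CabZ KO minus CabZ Het) over the same members of 20 gene groups in GV oocytes (yellow) and 2-cell embryos (purple), with the number of members tested at both stages in brackets. In GV oocytes the medians run from -0.95 for the mitochondrially encoded mRNAs to 0.26 for the two-cell-stage genes, and in 2-cell embryos they spread from -1.27 to 1.498.

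Markers of other cells were checked because embryos can carry along maternal cells or sperm. All 16 defining oocyte and early embryo markers passed the filter, and their summed level was 2089–2239 FPKM in CabZ Het and 1857–3288 FPKM in CabZ KO. The sum of 14 cumulus and granulosa markers was 3.09–5.53 FPKM in CabZ Het and 5.41–14.3 FPKM in CabZ KO, with 1 of 2 tested members called, Vim (1.34–4.195 FPKM in CabZ Het against 3.94–9.59 FPKM in CabZ KO), which lost its call without CabZ Het 1, CabZ Het 2 or CabZ KO 1 (0.98, 0.93 and 0.83). The sum of 8 oviduct markers was 4.86–11.7 and 6.19–9.84 FPKM, and that of 12 sperm markers 10.4–22.3 and 7.32–14.4 FPKM. Among their tested members Muc1 and Prm2 were called higher and Tnp1 lower. The sum of 6 blood markers was 154–237 and 215–305 FPKM. Of these, Lyz2 (values above) and Cd68 rose, Cd68 at 0.907, 10.05, 0.839 and 2.06 FPKM in CabZ Het 1 to 4 and 3.44, 31.1, 13.998 and 21.2 FPKM in CabZ KO 1 to 4, with its call lost without any of CabZ Het 1, Het 3 or Het 4 or KO 2, KO 3 or KO 4 (log2 differences 1.79 to 2.15). Ptprc, which marks all leukocytes, was at most 0.0223 FPKM, and Hba-a1 overlapped between groups (45.3–97.6 FPKM in CabZ Het against 26.5–94.03 FPKM in CabZ KO). No marker was at 0 in all libraries. The part of such cells in the differences was not tested.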

How the data were processed

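RNA of 2-cell embryos and GV oocytes was amplified and sequenced by the authors (Smart-seq2 and Nextera XT kits). The submitters' notes name STAR 2.5.3a, Partek and mm10. The deposited Cabin1 tables hold a score for each gene and library: an FPKM-like value divided once more by the gene's span, scaled to equal totals, with an offset of 0.01. FPKM over the whole span, introns included, was restored by removing the offset, multiplying by the span and rescaling. Low values came out near whole reads for most but not all genes, so reads are estimates and no count test was run. Genes that averaged 1 FPKM or more were compared on log2(FPKM + 1) with limma 3.58.1 in R 4.3.3, without a block, with Benjamini-Hochberg adjustment. A gene was called at an adjusted p under 0.05 and a log2 difference over 1 in size. Fold changes on this scale understate those of low genes. The KO effects at both stages were compared as a contrast over all 16 Cabin1 libraries. Cabin1 was compared by an exact permutation test.

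Named genes were the 12 called genes with the largest increase and decrease (mean of at least 10 FPKM, groups apart, ribosomal proteins and their pseudogenes left out), up to 4 called members per direction of each of 55 gene lists, the Hira complex list, the marker lists and, where a list had no called member, its most abundant one. Of the genes this rule names, 1 is not reported here. Members and lists were chosen with earlier results of these data known. Parents of pseudogenes came from blastn 2.17.0 matches over at least 50% of the copy. Promoters are from RefSeq. The fits were tested on simulated data. Alternatives were other pseudocounts, filters, scalings and thresholds, a replicate block and each library left out. Same-numbered KO and Het libraries did not deviate together.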

Additional observations from a re-analysis of the deposited data

Results flagged for a closer look

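Among 303 groups of 4 libraries of named genes, 20 held 1 library far from the other 3 by Dixon's test, a rate near the 1 in 20 that chance gives. The high CabZ Het library stood at 1.88 FPKM for Gm8701, 2.42 FPKM for both Gm4301 and Gm4308, 1.59 FPKM for Gm4305, 14.1 FPKM for Gdf9, 1915 FPKM for Dppa3, 25.1 FPKM for Ldhb and 10.0 FPKM for Cd68, and the low one at 59.9 FPKM for Zscan4d. Of the CabZ KO libraries, 1 stood alone at 44.8 FPKM for Kera, 164 FPKM for Lyz2, 446 FPKM for Ooep, 9.04 FPKM for H2afv, 3.67 FPKM for Polr2k, 43.4 FPKM for Lsm1, 1879 FPKM for Eif1, 2.64 FPKM for Psma6, 5.65 FPKM for Sumo2, 93.2 FPKM for Actb and 24.3 FPKM for Gadd45g.

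For the genes with the largest changes, the KO effect at the 2-cell stage differed from that in GV oocytes in all 9 that were tested at both stages. The difference of the log2 differences was 2.03 for Kera and 2.25 for 1700116B05Rik, both of which were also called higher in GV oocytes. It was -4.19 for Znhit3, -2.37 for Alppl2, -3.37 for Obox3-ps6, -3.43 for Gm11221, -4.50 for Mcts2, -3.05 for Gm12418 and -3.22 for Uqcc3. These genes were chosen for their 2-cell difference, which is a term of the contrast.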

How the results depend on the processing

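With a mean of at least 5 FPKM, 1650 genes were called (641 higher and 1009 lower), fewer because fewer were tested. Without the 2-fold threshold, 4376 were called, 2413 of them lower. On the values as deposited, 557 were lower, and the cause was not tested. On that scale the Cabin1 difference was -3.95e-05 (exact p = 0.0857). With each library left out, the Cabin1 difference ran from -0.219 to -0.144 FPKM, at an exact permutation p = 0.0571, the smallest that 4 against 3 can give. Leaving out each library gave 1203–1372 higher and 1422–1813 lower genes. A replicate block gave 1309 and 1577 calls, and same-numbered libraries correlated at -0.04, -0.05, 0.13 and 0.01, so the numbers do not pair them. Of 154 named genes tested, 129 kept their call and direction in every alternative run and 25 did not in at least 1, while 0 reversed. Among the latter, mt-Cytb, H3f3a, Cnot8, Cks2, Tmsb4x, Vim and Cd68 are given with their values in the results. On the values as deposited, falls numbered 5 in the proteasome list (21 on FPKM), 4 in translation factors (17), 6 in splicing (19) and 11 in mitochondrial ribosomal proteins (29). With a pseudocount of 0.1 they numbered 24, 21, 34 and 37 in the same lists, and 1992 over all genes tested. CabZ KO libraries had fewer reads, so low genes are less precise there.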

Other observations

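Noncoding transcripts leaned towards CabZ KO embryos. Of 369 tested lincRNAs, 146 were higher and 41 lower (median log2 difference 0.66), against 697 higher and 1116 lower of 5243 protein-coding genes (median -0.18). Antisense genes were higher in 52 and lower in 15 of 174, and the kit's strand setting was not given in the sources used here, so their reads cannot be told apart from those of the opposite gene.

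Counts of the remaining gene groups follow, on the FPKM scale, and cover tested members only. Over all genes tested, 20.4% were lower and 16.9% higher. Chromatin remodellers, histone-modifying enzymes, Zfp genes, solute carriers, DNA repair and spindle genes exceeded neither share. Under the filter lay 38 of 57 chromatin remodellers, 58 of 94 histone-modifying enzymes, 62 of 94 DNA repair genes, 254 of 383 Zfp genes and 255 of 309 solute carriers. FPKM is taken over the whole span, so long genes can lie under the filter despite many reads, as Cabin1 did. The medians of chromatin remodellers, histone-modifying enzymes, Zfp genes, solute carriers, DNA repair, spindle, secretory, TCA cycle, cholesterol synthesis, pluripotency, DNA methylation and Gtsf1 genes change sign under at least 1 other scaling. Chromatin remodellers fell in 2 of 19 (1 without CabZ Het 2 or CabZ KO 4) and histone-modifying enzymes in 5 of 36 (9 without CabZ KO 1), with 3 of the latter higher. With a pseudocount of 0.1 the falls in these lists numbered 5 and 12. Zfp zinc finger genes fell in 19 (14.7%) and rose in 9 (6.98%) of 129, and solute carriers fell in 10 (18.5%) and rose in 6 (11.1%) of 54. With libraries scaled to equal medians the balance turned, to 13 lower and 21 higher Zfp genes and 5 lower and 9 higher solute carriers. Nuclear pore and transport genes fell in 9 of 32, and 0 rose. DNA repair genes fell in 5 and rose in 2 of 32, and spindle and kinetochore genes fell in 9 and rose in 3 of 46. Falls in the Bcl2 and p53 list numbered 3 without CabZ Het 2 and 2 without CabZ KO 4. Secretory pathway genes rose in 5 and fell in 3 of 38 (8 higher without CabZ KO 2, 3 without CabZ KO 4, 5 lower without CabZ Het 1). TCA cycle genes fell in 5 and rose in 1 of 15, and cholesterol synthesis genes moved in 2 of 12 each way (1 higher without CabZ Het 3 or CabZ KO 1). Pluripotency regulators fell in 3 and rose in 1 of 18 (2 without CabZ KO 4). Imprinted genes fell in 3 (1 without CabZ KO 2 or CabZ KO 3) and rose in 2 of 8. DNA methylation genes rose in 1 of 8 (and fell in 1 without CabZ Het 1), and interferon-induced genes rose in 2 of 12 (1 without CabZ Het 2, Het 3, Het 4, KO 2 or KO 4). Tceal and Bex genes rose in 1 (2 without CabZ Het 4) and fell in 1 of 7. Gtsf1 and small RNA genes fell in 2 (1 without CabZ Het 2, Het 4, KO 1 or KO 2) and rose in 1 of 9 (2 without CabZ Het 1 or KO 2, 0 without CabZ Het 2 or KO 1).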
